A study of Mus musculus with 2 samples.

Results

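The genes described here encode the protein parts of the spliceosome and the RNA-binding proteins that steer it. They were taken by symbol: SR proteins (Srsf), heterogeneous nuclear ribonucleoproteins (Hnrnp), the SF3A and SF3B complexes (Sf3a, Sf3b), small nuclear ribonucleoprotein (snRNP) proteins (Snrp, Snrnp), pre-mRNA processing factors (Prpf) and the U2 auxiliary factor (U2af), with 75 such genes among 24062. RNA was counted in 2 libraries, 1 per group, of mouse CD31+ KITint cells, labelled as haematopoietic progenitor cells of the aorta, strain C57BL6, embryonic day 11. The cells carry a Gata2Venus reporter transgene, and the groups are the Venus-negative (Gata2Venus -) and Venus-positive (Gata2Venus +) cells of the sort. CD31 marks endothelium and blood cells that arise from it, and KITint by convention means an intermediate level of the KIT receptor. The reporter stands for Gata2 expression, and neither the number of embryos pooled nor the number of cells sorted is given in the labels.

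The spliceosome assembles anew on every intron. U1 snRNP pairs with the start of the intron, U2AF and U2 snRNP mark its end and branch point, and the U4/U6.U5 tri-snRNP then joins and is remodelled into the catalytic machine, while a minor spliceosome built on U11 and U12 removes a rare class of introns. SR proteins mostly promote the use of nearby splice sites and hnRNP proteins often oppose it, so their balance shapes alternative splicing, and in blood stem and progenitor cells SF3B1, SRSF2 and U2AF1 are known as recurrent mutation targets in myelodysplasia.

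Counts in genes totalled 10135400 in the Venus-negative and 9715131 in the Venus-positive library, and levels are counts per 1000000 (CPM) after scaling for composition. The splicing genes held 164885 and 145621 of these counts, a share of 1.627% (exact Clopper-Pearson 95% interval 1.619 to 1.635%) and 1.499% (1.491 to 1.507%). Gata2, the gene behind the reporter, had 13.5 CPM in the Venus-negative and 70.2 CPM in the Venus-positive library, a log2 ratio of -2.37, on the side the labels give. Of the surface markers of the sort, Pecam1 (CD31) was at 537 and 489 CPM and Kit at 199 and 60.7 CPM. With 1 library per group there is no replicate check and no test between the conditions. Ratios below are negative over positive on the log2 scale with exact 95% intervals that cover counting error only, and the rule of size asked for 10 CPM and 50 counts or more in the higher library and an interval that lies wholly beyond 2-fold. Genes that met both the CPM and the count limit are called genes with enough counts. In bulk samples fewer cells of a type and less RNA per cell cannot be told apart.

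Promoter sequence is shown for the gene past the rule in each direction, Snrnp200 and Hnrnpa0, and for Sf3a1 and Srsf2, whose ratios lay near 2-fold in opposite directions. Each run is the 250 bases before the annotated start, 5′ to 3′ on the gene's strand, from RefSeq on GRCm38.p6. Capitals mark matches to CCGGAAG, a core bound by ETS factors.
Snrnp200 (chr2:127208136-127208385, + strand): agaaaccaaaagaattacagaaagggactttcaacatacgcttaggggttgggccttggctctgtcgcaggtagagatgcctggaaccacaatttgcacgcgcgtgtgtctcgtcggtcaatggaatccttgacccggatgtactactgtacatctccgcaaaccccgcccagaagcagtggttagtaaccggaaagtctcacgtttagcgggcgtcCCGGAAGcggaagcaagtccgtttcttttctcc
Sf3a1 (chr11:4160104-4160353, + strand): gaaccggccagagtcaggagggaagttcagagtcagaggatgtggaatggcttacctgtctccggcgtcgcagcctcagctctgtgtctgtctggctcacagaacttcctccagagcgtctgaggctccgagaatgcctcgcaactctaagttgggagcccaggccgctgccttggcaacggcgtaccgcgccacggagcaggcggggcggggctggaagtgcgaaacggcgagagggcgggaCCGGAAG
Hnrnpa0 (chr13:58128557-58128806, - strand): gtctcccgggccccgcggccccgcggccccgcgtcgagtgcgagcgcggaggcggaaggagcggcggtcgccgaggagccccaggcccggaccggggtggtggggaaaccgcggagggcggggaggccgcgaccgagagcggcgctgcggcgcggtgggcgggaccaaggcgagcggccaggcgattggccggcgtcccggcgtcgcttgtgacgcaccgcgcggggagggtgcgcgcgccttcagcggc
Srsf2 (chr11:116853095-116853344, - strand): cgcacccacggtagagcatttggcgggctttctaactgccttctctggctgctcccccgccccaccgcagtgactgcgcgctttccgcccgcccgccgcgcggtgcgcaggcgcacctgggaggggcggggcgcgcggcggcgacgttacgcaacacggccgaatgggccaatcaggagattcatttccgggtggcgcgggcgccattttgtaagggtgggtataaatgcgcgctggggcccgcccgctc

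Snrnp200 and Sf3a1, both higher in the negative library, each hold 1 such match, and that of Sf3a1 ends at the base before the RefSeq start. The GENCODE start of Sf3a1 given below lies inside that match, since the annotations place the start at different bases. Hnrnpa0 and Srsf2, both higher in the positive library, hold none. Not shown were Prpf40b (1.09), Srsf4 (1.09) and Snrpc (-1.05), whose ratios were wider than those of Sf3a1 and Srsf2. Of these, Srsf4 and Snrpc hold a match or its reverse complement and Prpf40b does not. G and C made up 52.4% of the Snrnp200 stretch, 64% of the Sf3a1 stretch, 69.6% of the Srsf2 stretch and 81.2% of the Hnrnpa0 stretch. Over the 65 of 75 splicing genes with an entry in the promoter table, 19 (29.2%) held CCGGAAG or its reverse complement CTTCCGG in the 250 bases, against 1906 of 27025 genes with an entry (7.05%) and 1199 of the 7927 with an entry that had enough counts for the rule of size (15.1%). The match did not go with a direction: the median log2 ratio was 0.05 over 19 splicing genes with it and 0.02 over 45 without it. The GATA core AGATAA or its reverse complement TTATCT stood in 3 of the 65 (4.62%), none of the 4 shown, against 10.3% of all promoters and 5.05% of those with enough counts. A match is a run of letters, and no binding was measured here. Among the 10 splicing genes with no entry were Hnrnpll, Hnrnpul2, Prpf18, Sf3b4, Sf3b5, Snrnp40, Snrpb, Snrpd1 and U2af2.

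Most splicing genes were at similar levels in both libraries. Of the 75, 73 had enough counts for the rule of size, and 62 of these (84.9%) had an interval wholly within 2-fold, against 53.8% of all 10381 genes with enough counts. Snrnp200 alone was past it with the negative library higher and Hnrnpa0 alone with the positive higher, 1.37% of the 73 each way, against 15.2% and 14.9% of all genes. The other 9 (Snrpc, Prpf40b, Sf3a1, Srsf2, Srsf4, Srsf9, Hnrnpa3, Hnrnpd and Hnrnph2) had intervals that crossed 2-fold. The median log2 ratio was 0.02 over 74 splicing genes and -0.01 over 12544 genes with at least 20 counts over both libraries, and the median size of the ratio regardless of sign was 0.32 against 0.83.

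The contrast with all genes was seen at low and middle levels and not at high ones. At a mean of at least 200 CPM, 25 of 28 splicing genes (89.3%) lay within 2-fold against 89.6% of all genes, and 1 of 28 (3.57%) was past the rule in either direction against 5.37%, so at high level the splicing genes stood near the background. From 50 to 200 CPM the shares within 2-fold were 25 of 29 (86.2%) against 72.1%, and those past the rule 1 of 29 (3.45%) against 16.5%. Under 50 CPM, 12 of 16 splicing genes (75%) lay within 2-fold against 35.5%, and 0 of 16 were past the rule against 43.4%. Genes of this lowest class, whichever set they belong to, needed 10 CPM in only 1 of the libraries.

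**Figure D1:**
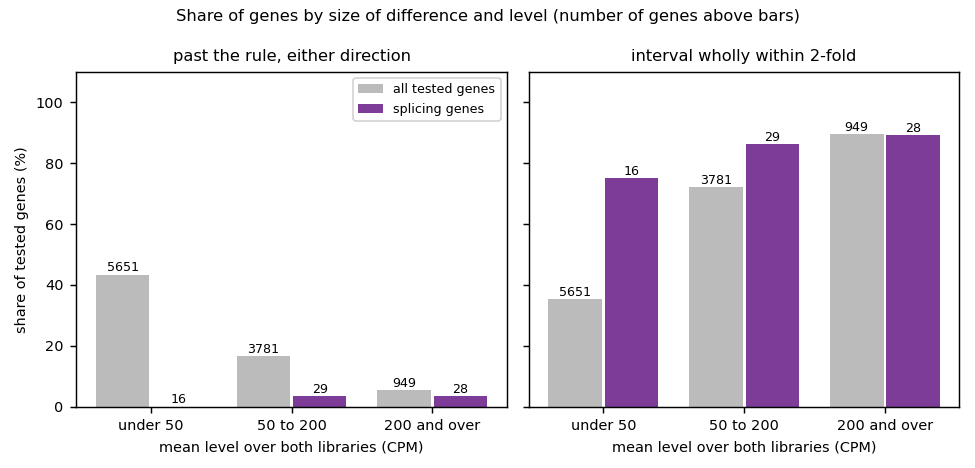
Share of genes with enough counts (percent, vertical axis from 0) whose ratio was past the rule of size in either direction (left) or wholly within 2-fold (right), in 3 classes of mean CPM, for all genes (grey) and splicing genes (purple), with the number of genes above each bar. The purple bars stand apart from the grey below 200 CPM and lie beside them above it (89.3% against 89.6% within 2-fold). In the lowest class the grey bars include genes that entered only because their levels differed between the libraries.

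**Figure D2:**
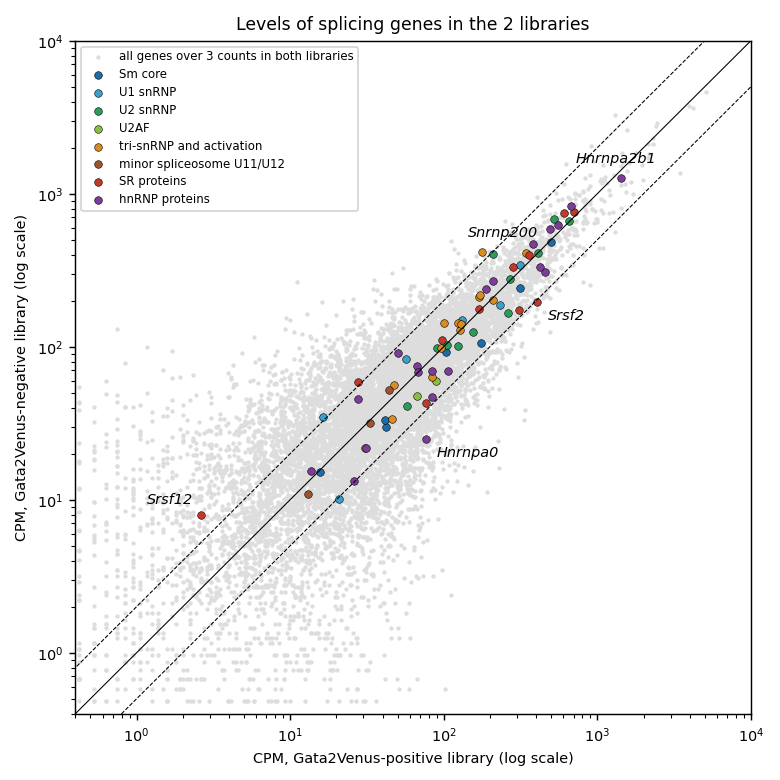
CPM in the negative library (vertical, log scale) against CPM in the positive library (horizontal, log scale), with splicing genes coloured by role over all genes whose counts exceed 3 in each library (grey); solid line equal levels, dashed lines 2-fold. Snrnp200 lies above and Hnrnpa0 below the 2-fold lines, and Hnrnpa2b1 is the most abundant splicing gene in both libraries.

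Across the 74 splicing genes with counts, log2 CPM in the 2 libraries had a Pearson r of 0.947, against 0.705 across 9178 genes of mean at least 10 CPM, sets that differ in level. At a mean of at least 200 CPM the values were alike, 0.79 across 28 splicing genes and 0.78 across 949 genes. From 50 to 200 CPM they were 0.71 across 29 splicing genes and 0.23 across 3779 genes. From 10 to 50 CPM they were 0.63 across 16 splicing genes and -0.02 across 4450 genes. The classes were cut on the mean of the same 2 libraries, which lowers r within a narrow class for genes with wide ratios. The values near 0 therefore do not show that the levels of those genes were unrelated. All are descriptions across genes of the same library pair, which are not independent replicates.

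The Sm proteins form the ring on which each spliceosomal snRNP is built, and all 7 that were detected had ratios below 0, from -0.72 for Snrpd1 to -0.04 for Snrpb. Their median was -0.33, and their summed level was 1005 CPM in the Venus-negative and 1188 CPM in the Venus-positive library. The intervals of 5 lay wholly below 0, and those of Snrpb and Snrpf reached it. Of all 10381 genes with enough counts, 4458 had an interval wholly below 0 and 4505 had one wholly above. When libraries were scaled by total counts alone, the ratios of Snrpb and Snrpf moved above 0 and the other 5 stayed below. None was past the rule, and all 7 intervals lay within 2-fold.

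Snrpd1, encoding SmD1, had 1096 counts (105 CPM) in the Venus-negative and 1645 counts (174 CPM) in the Venus-positive library, 1.65-fold lower in the negative (log2 ratio -0.72, interval -0.84 to -0.61). Snrpd3 (SmD3) had 244 and 315 CPM, a log2 ratio of -0.37 (-0.45 to -0.29). Snrpb, which encodes SmB and was the most abundant of the ring, was level at 485 and 497 CPM (-0.04, interval -0.09 to 0.02). The ring holds its proteins in equal numbers, but the counted levels of their transcripts were not equal. Per kilobase of a representative transcript, Snrpb stood at 417 and 428 CPM, Snrpe at 185 and 205 and Snrpd1 at 123 and 203. Snrpf was lowest at 17.6 and 18.2 CPM. The order from Snrpb through Snrpe, Snrpd1, Snrpd3, Snrpg and Snrpd2 to Snrpf was the same in both libraries, although Snrpe and Snrpd1 were nearly equal in the positive library. Snrpf shares 85.4% of its exon bases with the annotated genes 4933408J17Rik and Ccdc38, so its count is uncertain. Of the short sequence windows of each transcript, 28.4% of Snrpe, 21.3% of Snrpf and 18.1% of Snrpg also occur in other annotated genes. So do 13.8% of Snrpd1 and 11.7% of Snrpd2, against 0.09% of Snrpb and 0% of Snrpd3. Reads with no unique place may be missing from the former genes, so the order above and their ratios are uncertain to that extent.

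Snrpn, encoding SmN, the imprinted neural counterpart of SmB, had 0 counts in both libraries, where 3 counts correspond to 0.288 and 0.317 CPM. Snurf, which was also at 0 in both, covers 9.73% of the exon bases of the Snrpn transcript. Whether reads that Snrpn and Snurf share were left out as ambiguous is not known. The 0 counts therefore do not show that Snrpn was absent.

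U1 snRNP, which recognises the intron's start, held 2 of the wider differences, in opposite directions. Snrpc (the U1 C protein), a small protein that stabilises the pairing of U1 with the splice site, had 105 counts (10.1 CPM) in the Venus-negative and 197 counts (20.8 CPM) in the Venus-positive library, 2.07-fold lower in the negative (-1.05, interval -1.40 to -0.70). Prpf40b, a U1-associated protein that contacts the branch-point factors, had 364 counts (35.0 CPM) and 155 counts (16.4 CPM), 2.13-fold higher in the negative (1.09, interval 0.82 to 1.37). Neither was past the rule, since each interval crossed 2-fold, and 26.7% of the 50-base windows of the Snrpc transcript also occur in other annotated genes. The core proteins Snrnp70 (U1-70K) at 188 and 231 CPM (-0.30, interval -0.39 to -0.21) and Snrpa (the U1 A protein) at 149 and 131 CPM (0.18) differed little. Prpf39, another U1-associated factor, stood at 0.55, so 4 of the 6 U1 genes were above 0 and 2 below, with summed levels of 804 and 768 CPM.

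In U2 snRNP, which binds the branch point, 10 of 11 genes lay within 2-fold and the median was -0.005. Sf3b1, the large scaffold of SF3B and the splicing gene most often mutated in myelodysplasia, had 6941 counts (667 CPM) in the Venus-negative and 6204 counts (656 CPM) in the Venus-positive library (0.02, interval -0.03 to 0.07). Its partner Sf3b2 was equally level at 407 and 409 CPM (-0.005, interval -0.07 to 0.06). Sf3b3 stood at 684 and 523 CPM, the negative library being higher (1.31-fold, 0.39, interval 0.33 to 0.44), while the small subunits Sf3b4 (-0.50) and Sf3b5 (-0.32) were lower.

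Sf3a1 (chr11:4160350-4182541, + strand), the largest subunit of SF3A, had 4180 counts (401 CPM) in the Venus-negative and 1983 counts (210 CPM) in the Venus-positive library, 1.91-fold higher in the negative (0.94, interval 0.86 to 1.02). The other two SF3A subunits did not share this difference: Sf3a2 stood at 98.8 and 90.3 CPM (0.13) and Sf3a3 at 276 and 268 CPM (0.04), and their intervals included 0. On the other side, Snrpa1 (the U2 A′ protein), which sits with Snrpb2 (the U2 B″ protein, -0.28) on U2 RNA, had 167 and 263 CPM, 1.58-fold lower in the negative library (-0.66, interval -0.75 to -0.57).

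The 3 U2AF genes, whose proteins read the intron's end and recruit U2, all had lower ratios in the negative library and nearly the same size of difference. U2af2, the large subunit that binds the polypyrimidine tract, had 60.0 and 89.3 CPM (-0.57, interval -0.73 to -0.42). U2af1, the small subunit that reads the AG, had 227 counts (21.8 CPM) and 292 counts (30.9 CPM) at a ratio of -0.50 (-0.76 to -0.25). U2af1l4, a paralog of U2af1, had 47.4 and 67.5 CPM (-0.51, interval -0.68 to -0.34). All 3 intervals lay below 0 and within 2-fold. A change of scaling moves every ratio by the same amount, and under total counts, the largest shift tried, the median of the 3 was -0.43. Ratios of this size could thus not change direction under the 5 scalings. An interval wholly below 0 was common, at 4458 of all 10381 genes with enough counts. Of U2af1's 50-base windows 59.4% occur in other annotated genes, as do 29.0% of those of U2af2, so that reads with no unique place may be missing from their levels.

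Snrnp200 (chr2:127208386-127240451, + strand) encodes BRR2, the helicase that unwinds U4 from U6 to activate the spliceosome. It had 4349 counts (418 CPM) in the Venus-negative and 1689 counts (179 CPM) in the Venus-positive library, 2.34-fold higher in the negative (1.23, interval 1.14 to 1.31). Its direct partner in U5 snRNP, Prpf8, the protein at the catalytic centre, had 4282 and 3251 counts (411 and 344 CPM) and a ratio of 0.26 (0.19 to 0.33). Per kilobase of transcript, Snrnp200 stood above Prpf8 in the negative library (61.9 against 55.3 CPM) and below it in the positive (26.5 against 46.2 CPM). Snrnp40, the third U5 protein among the most abundant of the group, was level at 203 and 208 CPM (-0.04, interval -0.13 to 0.05). No 50-base window of the Snrnp200 transcript occurs in another annotated gene and no counted gene overlaps its exons.

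Over all 13 tri-snRNP and activation genes, 10 ratios were above 0 (11 when scaled by total counts), with a median of 0.21 and summed levels of 2269 and 1830 CPM. Without Snrnp200, Prpf8 and Snrnp40 the other 10 had a median of 0.17, 8 ratios above 0 and sums of 1237 and 1100 CPM, and all 10 lay within 2-fold. The U4/U6 protein Prpf4 stood at 0.51, its partner Prpf3 at -0.41, the kinase Prpf4b at 0.33 and the U4 binding protein Prpf31 at 0.31. Prpf6, a bridge between U5 and U4/U6, stood at 0.13 and Prpf19, the ubiquitin ligase of the activation complex, at 0.01. Prpf18, a factor of the later catalytic step, was the lowest at -0.45, and Prpf38a (0.03), Prpf38b (0.21) and Snrnp27 (0.24) fell between.

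Genes specific to the U11/U12 particle of the minor spliceosome were low and similar. Snrnp25 had 52.3 and 44.0 CPM (0.25, interval 0.06 to 0.44), Snrnp48 had 31.6 and 33.1 CPM (-0.07) and Snrnp35, which takes the place of U1-70K there, had 10.9 and 13.1 CPM (-0.27, interval -0.65 to 0.11). All 3 lay within 2-fold.

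The SR proteins summed to nearly the same level, 3009 CPM in the Venus-negative and 3032 CPM in the Venus-positive library, but their makeup differed. Of the 10 with enough counts, 7 had ratios above 0 and 3, Srsf1, Srsf2 and Srsf9, below, and no SR gene was past the rule. Srsf2 (SC35; chr11:116849901-116853094, - strand), a mutation target in myelodysplasia, had 2056 counts (197 CPM) in the Venus-negative and 3818 counts (404 CPM) in the Venus-positive library, 2.04-fold lower in the negative (-1.03, interval -1.11 to -0.95). Srsf1, the founding SR protein, had 1807 counts (174 CPM) and 2916 counts (308 CPM), 1.78-fold lower (-0.83, interval -0.91 to -0.74). Srsf9 (SRp30c), a relative of Srsf1 with a short RS domain, had 42.7 and 77.0 CPM, 1.80-fold lower (-0.85, interval -1.02 to -0.68). Exons of the genes Mettl23 and Mfsd11 cover 39.4% of the Srsf2 transcript, and reads in those stretches may be left out.

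Srsf4 (SRp75) went the other way with 614 counts (59.0 CPM) and 262 counts (27.7 CPM), 2.13-fold higher in the negative (1.09, interval 0.88 to 1.30), and 67.9% of its exon bases overlap the predicted gene Gm12992. The most abundant SR genes differed less. Srsf6 had 765 and 701 CPM (0.13), Srsf7 had 751 and 603 CPM (0.32, interval 0.27 to 0.37) and Srsf11 had 395 and 359 CPM (0.14). Srsf3 (0.23), Srsf10 (0.19) and Srsf5 (0.05) completed the group. Per kilobase, Srsf7 led in both libraries at 328 and 263 CPM, while Srsf2 came after 5 other SR genes in the negative library (104 CPM) and directly after Srsf7 in the positive (213 CPM). Srsf12 fell short of the 10 CPM that the rule asks for, with 83 counts (7.97 CPM) in the Venus-negative and 25 counts (2.64 CPM) in the Venus-positive library (1.59, interval 0.93 to 2.30).

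**Figure D3:**
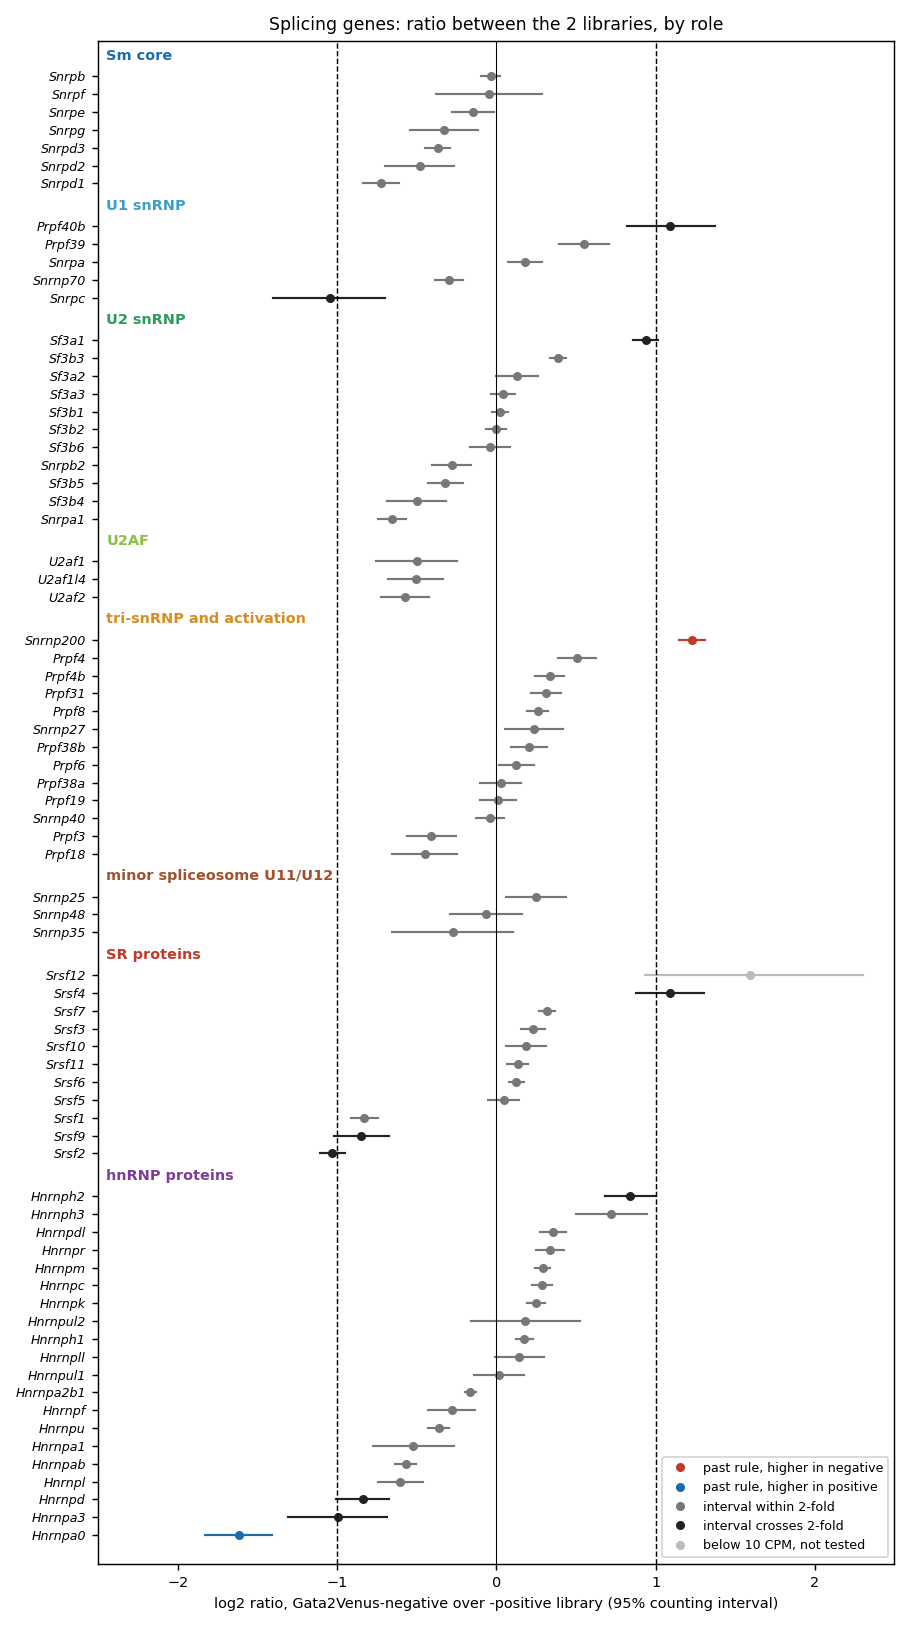
Log2 ratio of the negative over the positive library (horizontal) with exact 95% counting intervals for 73 of the 74 splicing genes with counts, grouped by role; dashed lines mark 2-fold. Snrnp200 (1.23) is the only gene wholly beyond the right dashed line and Hnrnpa0 (-1.62) the only gene wholly beyond the left, and the Sm core and U2AF groups lie on the left of 0.

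The 20 hnRNP genes summed to 5457 CPM in the Venus-negative and 5440 CPM in the Venus-positive library, with 11 ratios above 0 and 9 below and a median of 0.08. Hnrnpa0 (chr13:58125879-58128556, - strand), an intronless gene whose protein binds AU-rich elements of messenger RNA, had the largest ratio of the 73 in either direction, with 259 counts (24.9 CPM) in the Venus-negative and 722 counts (76.3 CPM) in the Venus-positive library, 3.07-fold lower in the negative (-1.62, interval -1.83 to -1.41). No window of its transcript is shared with another gene. Its relatives of the A/B type, a grouping made after their values were seen, also had ratios below 0, and none of them was past the rule. Hnrnpa3 had 137 counts (13.2 CPM) and 248 counts (26.2 CPM), 1.99-fold lower (-0.99, interval -1.31 to -0.69), and Hnrnpa1 stood at -0.52. Hnrnpa2b1, the most abundant splicing gene, had 13218 counts (1270 CPM) and 13465 counts (1424 CPM) at -0.17 (-0.20 to -0.13). Of the Hnrnpa3 windows 90.5% occur in other annotated genes, 42 in number, as do 46.4% of the Hnrnpa1 windows, so the levels of both may be far too low and their ratios are uncertain.

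The D-type hnRNPs, which also bind AU-rich RNA, had ratios of both signs. Hnrnpd (AUF1) had 46.8 and 83.7 CPM, 1.79-fold lower in the negative library (-0.84, interval -1.01 to -0.68), and Hnrnpab stood at -0.57, while Hnrnpdl had 267 and 209 CPM at 0.35. None of the H-type genes, whose proteins bind runs of G and which were grouped after their values were seen, was past the rule. Hnrnph2 (X chromosome) had 90.4 and 50.4 CPM, a ratio of 0.84 (interval 0.68 to 1.00), Hnrnph3 stood at 0.72 and the more abundant Hnrnph1, at 622 and 551 CPM, at 0.18, and their relative Hnrnpf stood at -0.28. Among the other abundant members, Hnrnpm had 830 and 678 CPM (0.29, interval 0.25 to 0.34), Hnrnpk stood at 0.25, Hnrnpc at 0.29, Hnrnpr at 0.34 and Hnrnpu at -0.36. Hnrnpl (-0.60), Hnrnpll (0.14), Hnrnpul1 (0.01) and Hnrnpul2 (0.18) completed the family, and every one of these lay within 2-fold except Hnrnpd and Hnrnph2. Of the 50-base windows, 49.0% of Hnrnpf, 38.3% of Hnrnpk, 18.2% of Hnrnph2 and 13.4% of Hnrnpc occur in other annotated genes. Exons of other genes cover 34.1% of the Hnrnpab transcript and 29.7% of that of Hnrnpm. The levels and ratios of these genes are uncertain to that extent.

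When the interval had to lie beyond 1.5-fold instead of 2-fold, 5 splicing genes were higher in the negative library (Snrnp200, Sf3a1, Prpf40b, Srsf4 and Hnrnph2) and 8 in the positive (Hnrnpa0, Hnrnpa3, Hnrnpd, Snrpc, Snrpd1, Srsf1, Srsf2 and Srsf9), of 73 each, against 23.5% and 23.0% of all genes. If replicates were to vary with a coefficient of variation of 0.4, an assumed value, neither Snrnp200 nor Hnrnpa0 would stay past the rule, nor would any interval stay within 2-fold.

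Ratios of the splicing genes ran with transcript length. The rank correlation (Spearman) of ratio with the length of a representative transcript was 0.42 across the 73 splicing genes, against 0.065 across 9334 genes with enough counts and 0.12 across 4553 of these at a mean of at least 50 CPM. It is a description across genes of 1 pair of libraries. The 27 splicing genes under 2000 bases, among them 6 of the 7 detected Sm genes, had a median of -0.27, the 32 from 2000 to 4000 bases 0.13, and the 14 over 4000 bases, among them Snrnp200 and Sf3a1, 0.30. For all genes the same medians were -0.14, 0.05 and 0.08, in the same order but over a narrower span. Among the exceptions were Srsf1 and Hnrnpd, over 4000 bases and below 0, and Snrnp25, under 2000 bases and above 0. Any part of RNA length or fragmentation in the group differences above, such as the low Sm ratios, was not tested.

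**Figure D4:**
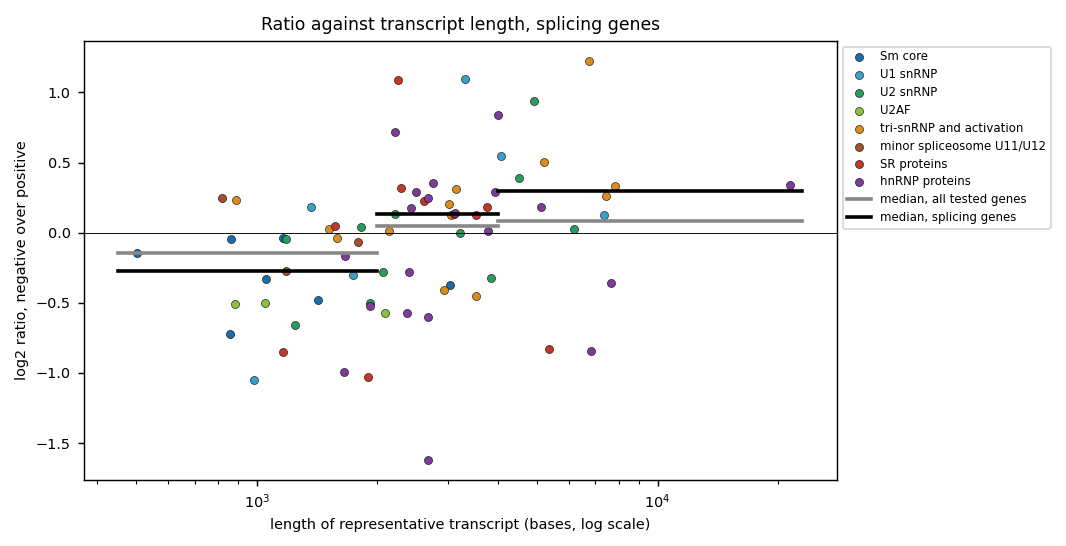
Log2 ratio of the negative over the positive library (vertical) against the length of a representative transcript in bases (horizontal, log scale) for the 73 splicing genes with enough counts, coloured by role; thick lines are medians over 3 length classes for the splicing genes (black) and for all genes with enough counts (grey). The black medians go from -0.27 through 0.13 to 0.30, the grey from -0.14 through 0.05 to 0.08.

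Shared sequence also went with the ratio. The 19 splicing genes with at least 10% of 50-base windows in common with another annotated gene had a median of -0.28, and the 34 with none had a median of 0.13. Splicing genes with some shared windows but under 10% are in neither set. These 2 sets differed in level too, with a median over genes of 74.7 CPM in the former and 193 CPM in the latter. They also differed in transcript length. The longest in the former was Hnrnph2 at 3988 bases, while the latter held longer ones such as Prpf8 (7442), Snrnp200 (6745) and Sf3b1 (6195). Shared sequence and length were not separated here. The table's row for alignments with no unique place held 45.5% of all counts in the Venus-negative and 48.2% in the Venus-positive library, and its part in these ratios was not tested.

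Splicing genes that the symbol rule does not take were read from lists of 154 further genes, of which 151 were in the table and 136 had enough counts. The rule was passed by 11 (8.09%) with the negative library higher and by 6 (4.41%) with the positive higher, against 15.2% and 14.9% of all genes. Another 104 (76.5%) lay within 2-fold, against 53.8% of all genes, and 15 crossed it. Their median was 0.03 and the median size regardless of sign 0.50. Of 37 tissue-restricted or general regulators outside the families above, 5 (13.5%) were past the rule on each side, near the shares of all genes, and of the 99 core and auxiliary genes 6 (6.06%) passed with the negative library higher and 1 (1.01%), Luc7l3, with the positive higher.

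Several of these act beside the spliceosomal proteins described above. Ddx23, the U5 helicase that releases U1 from the intron's start, had 191 counts (18.3 CPM) in the Venus-negative and 10 counts (1.06 CPM) in the Venus-positive library, 17.4-fold higher in the negative (4.12, interval 3.21 to 5.20). Sart1, a tri-snRNP protein, had 525 and 166 counts (50.4 and 17.6 CPM; 1.52), and Syf2, of the catalytic complex, had 1477 and 495 counts (142 and 52.3 CPM; 1.44). In the 2 lists that hold these 3 genes most others were not past the rule: 2 of 15 helicase and tri-snRNP genes (13.3%) and 1 of 21 genes of the PRP19 complex and catalytic step (4.76%) were, against 15.2% of all genes.

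Of 15 genes for making and importing snRNPs, 2 (13.3%) were past the rule with the negative library higher, a share near the 15.2% of all genes. Snupn, encoding snurportin, which carries capped snRNPs into the nucleus, had 660 counts (63.4 CPM) and 93 counts (9.83 CPM), 6.45-fold higher in the negative (2.69, interval 2.37 to 3.02). Coil, encoding coilin, the scaffold of Cajal bodies where snRNPs mature, had 910 counts (87.4 CPM) and 174 counts (18.4 CPM), 4.75-fold higher (2.25, interval 2.01 to 2.49). In the minor spliceosome list 1 of 7 (14.3%, also near that share) was past it, Pdcd7, a U11 protein, with 124 and 24 counts (2.23, interval 1.59 to 2.93). None of 5 LSm ring genes (median over all 7 listed -0.35), 7 branch-site genes (0.03) or 9 exon junction complex genes (-0.13) was past it. Of 20 SR-related proteins and kinases 1 (5%, against 14.9% of all genes with the positive library higher) was past it, Luc7l3, a U1-associated protein, with 821 counts (78.9 CPM) and 2030 counts (215 CPM), 2.72-fold lower in the negative (-1.44, interval -1.56 to -1.33).

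Of the further genes with enough counts, the tissue-restricted regulators Nova1, Nova2 and Khdrbs2 gave the widest ratios. The other regulators past the rule had narrower ratios than the helicase gene Ddx23 (4.12). On the positive side, the neural regulator Nova1 had 2 counts in the Venus-negative and 206 (21.8 CPM) in the Venus-positive library, a log2 ratio of -6.83 with an interval of -9.88 to -4.95. Its paralog Nova2 had 0 and 95 counts, at least 34.9-fold lower in the negative against 3 counts. Celf2, a CELF protein of brain, muscle and blood cells, had 71 counts (6.82 CPM) and 643 counts (68.0 CPM), 9.97-fold lower (-3.32, interval -3.69 to -2.96). Taf15, of the FET family, and Khsrp, a KH-domain protein, were at -1.81 and -1.73, 3.51-fold and 3.33-fold lower. Further genes had counts only in the positive library but did not reach the limits of the rule. Srpk3, a muscle SR kinase, had 94 counts but only 9.94 CPM. The others were Rbfox1 with 46 counts, Celf3 with 32, Celf5 with 30 and Srrm4 with 10.

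On the negative side, Khdrbs2, a neural STAR-family protein, had 116 counts (11.1 CPM) and 0, at least 35.1-fold higher against 3 counts. Esrp1, the epithelial splicing regulator, had 303 and 71 counts (29.1 and 7.51 CPM), 3.88-fold higher (1.95, interval 1.58 to 2.35). Ptbp2, the polypyrimidine tract binding protein of developing neurons, had 1120 and 336 counts (108 and 35.5 CPM; 1.60, interval 1.42 to 1.78), and Rbm4b had 525 and 157 counts (1.60). Rbm6, at 1.14 (interval 1.02 to 1.26), lay closest to 2-fold of the 11. Rbfox3, Celf6, Esrp2 and Rbm24 had 0 counts in both libraries. Neural regulators thus stood on both sides.

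**Figure D5:**
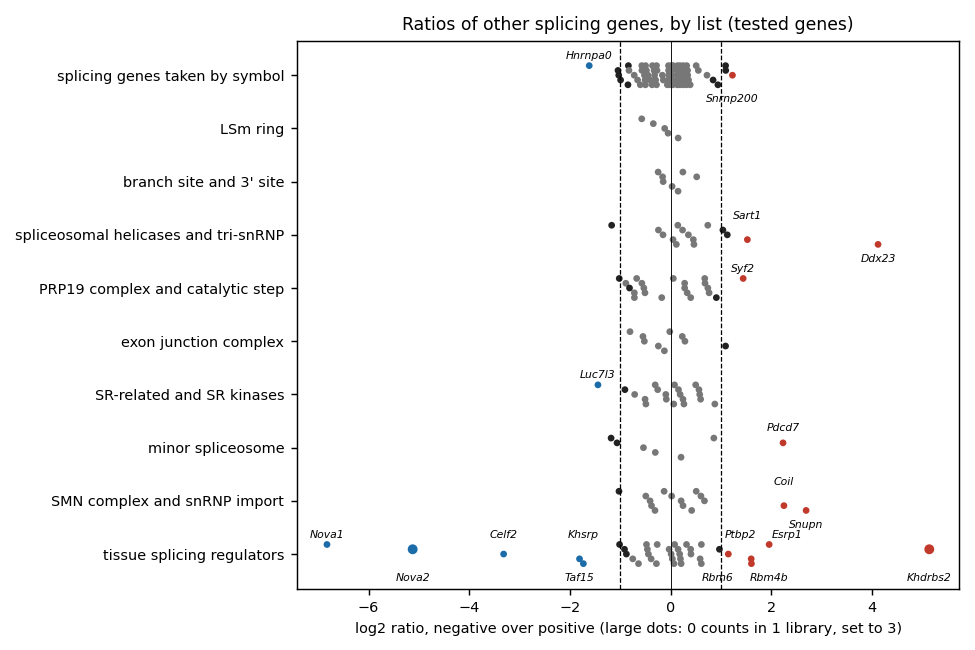
Log2 ratio of the negative over the positive library for splicing genes with enough counts, in a row for the genes taken by symbol (top) and a row per further list; red and blue points are past the rule of size, higher in the negative and positive library, black points cross 2-fold, and large points had 0 counts in 1 library and are drawn with 3 counts there. Most points lie within the dashed 2-fold lines, and the tissue regulators span from Nova1 (-6.83) to Khdrbs2.

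Markers of other cell types differed between the libraries beside these genes. Of 12 neuron markers 5 had enough counts, Map2 passing it with the negative library higher, and Snap25 and Stmn2 with the positive higher, with summed levels of 69.2 and 115 CPM; Tubb3, Dcx, Syt1 and Th were at 0 in both, and Elavl3, Elavl4 and Stmn2 at 0 in the negative. Of 6 epithelial markers, Epcam, Cdh1 and Cldn7 were higher in the negative library and Cldn6 in the positive, with sums of 401 and 293 CPM and Cldn7 at 0 in the positive. The part of neurons in the Nova, Celf and Rbfox ratios and of epithelium in that of Esrp1 was not tested. Mesenchyme markers summed to 8838 and 5682 CPM (6 of 11 with enough counts higher in the negative library, 0 in the positive; Twist1 at 0 in the positive), endothelial markers to 2578 and 5098 CPM (0 and 6 of 10) and macrophage markers to 218 and 1036 CPM (0 and 9 of 11; Timd4 at 0 in the negative). Erythroid markers summed to 325 and 260 CPM (0 and 3 of 6), with Gata1, Klf1, Epor, Car1 and Hemgn at 0 in the negative library. The embryonic globins on that list went the other way, with Hba-x at 1.18, Hbb-bh1 at 0.89 and Hbb-y at 0.73. None of these globins was past the rule. The part of all these cell types in the ratios of Snrnp200, Hnrnpa0 and the other splicing genes was not tested.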

How the data were processed

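RNA was measured in 2 libraries, 1 per group, grouped by the labels. Per the labels' protocols, RNA came from Ambion's mirVana kit, was turned into cDNA by SMARTER, which amplifies by PCR, and was sequenced on Illumina; no molecular identifiers are named. TopHat, Cufflinks and HTSeq are named with build mm10 per the submitters' processing notes. Annotation, strand use, versions and read length were not given in the sources used here. Reads of overlapping genes therefore cannot be told apart. The authors deposited raw whole-number counts, with genes named by symbol. Rows for reads in no gene were left out; they held 5.93% and 8.00% (no feature), 0.474% and 0.412% (ambiguous) and 45.5% and 48.2% (not unique) of the negative and positive library. Detected genes numbered 12392 and 12709, and 3 counts correspond to 0.288 and 0.317 CPM.

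Library totals over genes were corrected with TMM factors of 1.03 and 0.974 from edgeR 4.0.16 (R 4.3.3). Ratios have exact 95% Clopper-Pearson intervals given the gene's total, checked on simulated data; intervals and the 3-count limit cover counting error only. No test between conditions was possible. Medians cover genes with at least 20 counts. Lengths, positions and 50-base windows shared with other genes come from GENCODE vM21 (GRCm38), where all 75 symbols matched; promoters come from RefSeq GRCm38.p6. Genes were named by rule: those past the rule of size, the 3 most abundant per role, Sf3b1, Srsf2 and U2af1, up to 10 further splicing genes per direction and Gata2; others were named after their values were seen, and some genes are not reported here by name, though they remain in the counts, sums and medians. The members and lists were chosen with earlier results of these data known. Alternatives changed the scaling (DESeq2 1.42.0 size factors among them), the filter, the fold, the interval and the depth.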

Additional observations from a re-analysis of the deposited data

How the results depend on the processing

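Leaving out a replicate or blocking was not possible with 1 library per group, and no paired analysis was possible because each group holds a single library. Among splicing genes taken by symbol, the count higher in the negative library was 1, and became 5 with an interval beyond 1.5-fold, 3 with a 2-fold ratio and no interval (Snrnp200, Prpf40b and Srsf4) and 0 with an assumed coefficient of variation of 0.4. The count higher in the positive library was 1, and became 8, 3 (Hnrnpa0, Snrpc and Srsf2) and 0 in the same order. The shares of all genes in that order were 23.5%, 19.1% and 6.17% on the negative side. On the positive side they were 23.0%, 18.6% and 6.58%. The count within 2-fold went from 62 to 0 with that coefficient of variation, which makes every interval too wide to fit. For the further splicing genes, the negative side went from 11 of 136 to 7 of 111 with a 50 CPM filter, against 11.1% of all genes. The count was 21 of 136 beyond 1.5-fold, against 23.5% of all genes. With the assumed variation it was 3 of 136 (Ddx23, Khdrbs2 and Snupn), against 6.17%. The positive side went from 6 of 136 to 11 of 145 with a filter of 1 CPM and 10 counts, against 19.3% of all genes. With no filter it was 11 of 147, against 18.1%, and at 50 CPM 2 of 111 (Celf2 and Luc7l3), against 9.63%. Beyond 1.5-fold it was 20 of 136, against 23.0%, and with no interval 12 of 136, against 18.6%. With the assumed variation it was 3 of 136 (Celf2, Nova1 and Nova2), against 6.58%. The median log2 ratio ranged from 0.01 to 0.10 over its 7 alternatives. Total-count scaling moved the median of all genes with enough counts from -0.002 to 0.08, the largest shift of the scalings tried. No splicing gene's interval changed sides of 0 under any of the 5 scalings. Each scaling moves all ratios by the same amount, so only ratios near 0 could have changed sides. Every ratio rests on a single library per group.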
